A study of Mus musculus with 4 samples.

Results

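The cells described here are Ly49-expressing NK-like cells that were not dividing, taken from the CD45+ cells of mouse salivary gland. They were chosen per cell from raw transcript counts (unique molecular identifiers, UMIs): at least 3 UMIs of Klra4, Klra8 and Klre1 summed, no UMI of Cd3e, Cd3d or Cd3g, fewer than 4 UMIs of Mki67 and Top2a summed, no UMI of Il1rl1 and at most 5 UMIs of C1qa, C1qb and C1qc summed. Of 37644 cells past the filters on UMIs, genes and mitochondrial share, 3113 met this rule. The compared groups were Csf2-/- mice, which lack GM-CSF, and Csf2+/- mice, which keep 1 functional allele, all labelled C56BL/6 and 20 days old. Each genotype had 1 female and 1 male library (n = 2 libraries per genotype), each made from a pool of 2 mice according to the design text. Every mouse compared carried at least 1 mutant Csf2 allele, and no wild type was among them. How the Csf2 allele was disrupted is not stated. The gate took 763 female and 532 male Csf2-/- cells, and 997 female and 821 male Csf2+/- cells.

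Natural killer (NK) cells are innate lymphocytes that kill infected or transformed cells with perforin and granzymes and release cytokines and chemokines. Ly49 receptors, encoded by the Klra genes, are lectin-like proteins that mostly recognise MHC class I, and each NK cell switches on only some of them. Salivary gland NK cells are known for sharing features with type 1 innate lymphoid cells (ILC1s), such as the collagen-binding integrin subunit encoded by Itga1, a residency that depends on TGF-β. GM-CSF, the product of Csf2, is a growth factor for myeloid cells.

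Klra4 and Klra8 encode Ly49D and Ly49H, activating receptors, and Klre1 encodes a related lectin-like receptor that is not itself a Ly49. The promoters of these 3 genes are shown because their transcripts chose the cells. The sequences are from RefSeq on GRCm38.p6 (the deposited counts used another build, GRCm39), from 250 bases before to 50 after the start, 5′ to 3′ along each gene's strand. They lie at chr6:130067222-130067521 on the minus strand for Klra4, chr6:130129849-130130148 on the minus strand for Klra8 (the first of 2 entries) and chr6:129577963-129578262 on the plus strand for Klre1. Capitals mark matches, on either strand, to TATAAA (the TATA box), TGTGGT (a Runx motif) or TCACACCT (a T-box motif).
Klra4: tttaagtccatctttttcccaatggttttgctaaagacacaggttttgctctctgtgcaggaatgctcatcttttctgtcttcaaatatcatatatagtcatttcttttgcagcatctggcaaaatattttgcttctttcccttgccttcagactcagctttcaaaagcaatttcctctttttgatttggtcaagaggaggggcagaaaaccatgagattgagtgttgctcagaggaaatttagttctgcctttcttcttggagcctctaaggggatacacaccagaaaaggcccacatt
Klra8: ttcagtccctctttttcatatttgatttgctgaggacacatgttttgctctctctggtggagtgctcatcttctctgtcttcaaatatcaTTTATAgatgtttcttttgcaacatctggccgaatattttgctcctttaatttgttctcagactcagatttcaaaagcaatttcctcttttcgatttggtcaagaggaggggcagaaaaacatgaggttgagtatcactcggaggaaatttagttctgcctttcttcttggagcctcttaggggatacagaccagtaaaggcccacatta
Klre1: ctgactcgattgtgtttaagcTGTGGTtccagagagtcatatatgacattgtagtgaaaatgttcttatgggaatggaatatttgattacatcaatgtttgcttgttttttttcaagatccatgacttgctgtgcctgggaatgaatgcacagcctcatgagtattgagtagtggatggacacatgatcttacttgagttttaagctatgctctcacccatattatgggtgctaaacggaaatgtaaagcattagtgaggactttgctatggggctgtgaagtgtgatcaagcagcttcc
Over 299 aligned bases, Klra4 and Klra8 were 86.6% identical. Klra8 held 1 match to TATAAA, read on the other strand, and Klre1 held 1 to TGTGGT. Among 32851 mouse promoters of the same length, 13.6% held TATAAA, 16.8% TGTGGT and 1.28% TCACACCT. A match is a description and not a binding site.

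These cells carried the defining transcripts of NK cells. Gzma, which encodes granzyme A, stood at 1934 and 2417 CPM (the gene's UMIs among all UMIs of the cells summed per library, on the usual CPM scale) in female and male Csf2-/- cells and at 2079 and 2233 CPM in female and male Csf2+/- cells. Eomes, the transcription factor that marks NK cells off from ILC1s, had 236.8 and 264.0 CPM in Csf2-/- against 230.1 and 253.0 CPM in Csf2+/- cells. Neither gene was used by the rule, and the genotypes overlapped in both. A Gzma UMI was found in 69.2% and 75.9% of Csf2-/- cells and in 70.6% and 75.2% of Csf2+/- cells. In B cells of the same libraries, which should lack it, a UMI was found in 4.09% and 3.74% in Csf2-/- against 4.45% and 5.77% in Csf2+/- libraries, at median depths of 4641 to 5297 UMIs against 8632 to 10859 UMIs in the gated cells. Tyrobp, which encodes the adaptor through which Ly49D and Ly49H signal, had 2273 and 2316 CPM in Csf2-/- against 2249 and 2159 CPM in Csf2+/- cells. Transcripts of the T cell receptor constant regions were present although Cd3 was gated out, with Trbc1 at 278.2 and 317.7 CPM in Csf2-/- against 269.5 and 304.8 CPM in Csf2+/- cells, and Trac at 16.4 to 19.6 CPM over the 4 libraries.

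The label described most but not all of the cells. A Klre1 UMI was seen in 98.4% and 98.9% of Csf2-/- cells and in 98.8% and 99.1% of Csf2+/- cells, whereas a Klra4 UMI was seen in 53.4% to 62.6% and a Klra8 UMI in 45.1% to 53.7% of the cells of a library. Cells chosen through Klre1 with no Klra4 or Klra8 UMI made up 26.1% and 28.9% of Csf2-/- and 22.2% and 21.7% of Csf2+/- cells. No UMI of any of 11 Ly49 genes was found in 6.42% and 10.2% of Csf2-/- and 5.82% and 7.06% of Csf2+/- cells. At this depth such a cell may still express one. A Mki67 or Top2a UMI was present in 27.3% of the gated cells, so "not dividing" means fewer than 4 such UMIs. Of the gated cells, 99 also carried 10 or more UMIs of macrophage, dendritic, B cell or granulocyte genes (Lyz2, Csf1r, Adgre1, Cd79a, Ms4a1, H2-Aa, H2-Ab1, H2-Eb1, Fscn1, Ccr7, S100a8 and S100a9), with 23 and 15 in the Csf2-/- and 35 and 26 in the Csf2+/- libraries. They are called mixed-lineage cells here. The genes and limit behind that name were chosen after the values were seen. Across libraries, 159 cell barcodes occurred more than once, and 1 of the gated barcodes was gated in more than 1 library.

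The rule has sharp edges. Cells with exactly 3 UMIs of Klra4, Klra8 and Klre1, just inside, numbered 41 and 31 in the Csf2-/- and 43 and 30 in the Csf2+/- libraries, and their Eomes level was 100.4 and 127.5 CPM in Csf2-/- against 62.9 and 70.9 CPM in Csf2+/- cells. Cells with 2 UMIs, just outside, numbered 48 and 34 in the Csf2-/- and 59 and 33 in the Csf2+/- libraries, with Eomes at 49.0 and 25.2 CPM in Csf2-/- against 106.1 and 50.96 CPM in Csf2+/- cells. The median gated cell had 15 and 15.5 such UMIs in the Csf2-/- and 18 in both Csf2+/- libraries. A larger step was the removal of cells with a Cd3 UMI, which took 59.1% and 57.2% of the Csf2-/- and 56.8% and 55.4% of the Csf2+/- cells with 3 or more gate UMIs. In 746 and 539 Csf2-/- and 867 and 703 Csf2+/- cells of those removed, the only Cd3 gene seen was Cd3g.

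Ly49-expressing NK-like cells were a smaller share of the sorted cells in both Csf2-/- libraries. They made up 7.82% (exact 95% binomial interval 7.30 to 8.37) of the Csf2-/- female and 5.56% (5.11 to 6.03) of the Csf2-/- male cells, against 10.4% (9.82 to 11.1) of the Csf2+/- female and 9.38% (8.78 to 10.0) of the Csf2+/- male cells. The intervals cover counting error only. The means were 6.69 ± 1.60% in Csf2-/- against 9.90 ± 0.734% in Csf2+/- libraries (SD, n = 2 each), a difference of -3.21 percentage points. The genotypes did not overlap, but with 2 libraries each the exact permutation test, two-sided, gave p = 0.333, the smallest it can give. The Csf2-/- cells were read less deeply. Every cell was also thinned to 3000 UMIs before gating, leaving out 628 and 648 shallower Csf2-/- and 578 and 573 shallower Csf2+/- cells. The share was then 9.78% and 7.14% in Csf2-/- against 12.9% and 13.0% in Csf2+/- libraries. The exclusion genes, such as Cd3e, were thinned too, so cells that lost their UMIs of those genes could enter. The thinned gate held 892 and 637 Csf2-/- and 1156 and 1063 Csf2+/- cells, more than at full depth, so it was not the same set of cells.

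The gate steps and the neighbouring populations were counted in the same way. Without the Cd3 and later steps, cells with 3 or more gate UMIs were 26.2% and 20.9% of Csf2-/- and 31.5% and 30.2% of Csf2+/- cells. The last step, the C1q limit, cut the gate from 876 to 763 and from 634 to 532 Csf2-/- cells. In the Csf2+/- libraries it cut the gate from 1072 to 997 and from 911 to 821 cells. It thus took a larger part of the Csf2-/- cells, and its part in the difference of shares was not tested. Ly49-negative ILC1-like cells, gated by at least 2 UMIs of Ncr1 and Klrb1c with no gate UMI, averaged 2.16 ± 0.375% in Csf2-/- against 1.87 ± 0.275% in Csf2+/- libraries (SD, n = 2 each), and the genotypes overlapped. A further share was taken of the gated, the dividing Ly49-expressing and the Ly49-negative cells together. The gated cells were 69.0% and 63.9% of these in Csf2-/- against 74.7% and 70.2% in Csf2+/- libraries. Both Csf2-/- values lay under both Csf2+/- values. Dividing cells made up 12.2% (female) and 18.3% (male) of all Ly49-expressing cells in Csf2-/- libraries, against 12.3% (female) and 19.7% (male) in Csf2+/- libraries, so the male library was the higher in each genotype. All these shares depend on the CD45 sort and on how many other leukocytes it held.

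**Figure D1:**
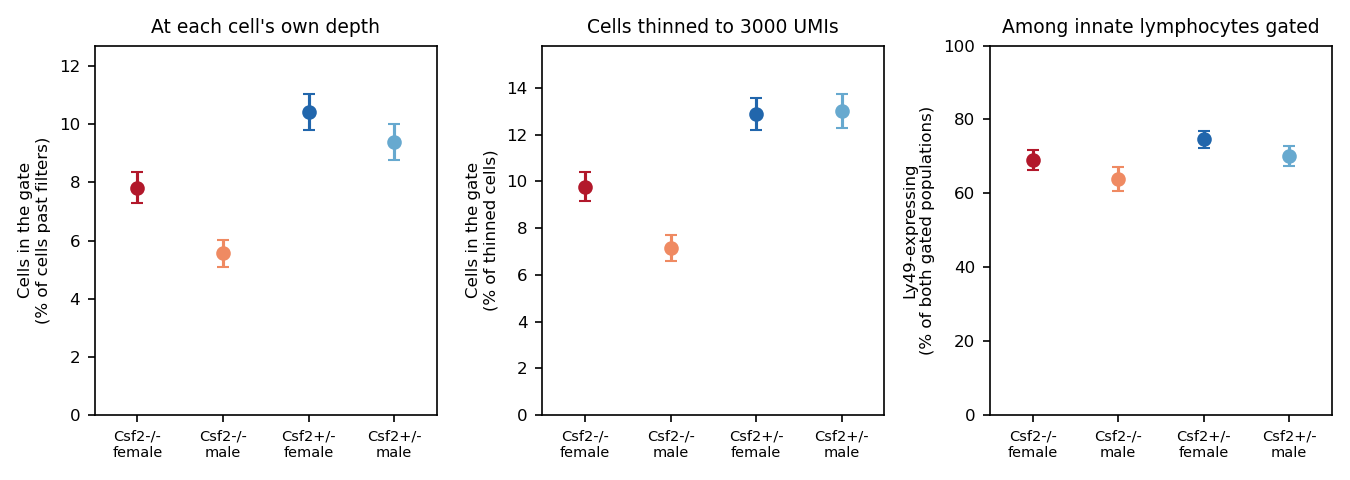
Share of Ly49-expressing NK-like cells in each library (x axis) in percent, with exact 95% binomial intervals as bars. The panels show it at each cell's own depth, after thinning to 3000 UMIs and among gated, dividing Ly49-expressing and Ly49-negative cells together. The last panel's axis label, both gated populations, means these together. Both Csf2-/- libraries (7.82% and 5.56%) lie under both Csf2+/- libraries (10.4% and 9.38%) at full depth, and also after thinning.

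The gated cells differed from Ly49-negative ILC1-like cells of the same libraries in more than the genes of the rule. This is a description with no test, since the gate set the populations apart. Gzma stood at 29.0 and 22.5 CPM in Csf2-/- against 42.2 and 6.12 CPM in Csf2+/- Ly49-negative cells, and Eomes at 13.4 and 4.66 CPM in Csf2-/- against 7.83 and 2.62 CPM in Csf2+/- Ly49-negative cells. Both were far under their levels in the gated cells. Itga2, the integrin subunit that marks circulating-type NK cells, had 134.8 and 184.6 CPM in Csf2-/- against 145.9 and 177.8 CPM in Csf2+/- gated cells, and 24.5 to 26.4 CPM in the Ly49-negative cells. Gzmc, another granzyme, went the other way, with 103.6 to 181.8 CPM in the gated and 826.5 to 1617 CPM in the Ly49-negative cells. Cxcr6, a chemokine receptor of resident lymphocytes, had 13.9 to 21.0 CPM in the gated and 235.4 to 314.3 CPM in the Ly49-negative cells. Il7r, the IL-7 receptor chain of ILC1s, had 4.88 to 22.9 CPM in the gated and 215.1 to 298.8 CPM in the Ly49-negative cells.

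Other genes lay closer together in the gated and Ly49-negative cells. Itga1 had 118.6 to 170.7 CPM in the gated and 169.8 to 205.5 CPM in the Ly49-negative cells, so this ILC1-type integrin transcript was common in the Ly49-expressing cells. Ncr1, which encodes the activating receptor NKp46, had 234.4 to 299.3 CPM in the gated and 368.1 to 404.3 CPM in the Ly49-negative cells. Ncr1 helped to choose the Ly49-negative cells but not the gated ones, so its levels cannot be compared between them. The T-box factor Tbx21 had 101.5 to 127.5 CPM in the gated and 139.7 to 167.1 CPM in the Ly49-negative cells. Xcl1, a chemokine that draws cross-presenting dendritic cells, had 2140 to 2414 CPM in the gated and 2829 to 3136 CPM in the Ly49-negative cells. In the dividing Ly49-expressing cells, Eomes stood at 238.6 to 300.2 CPM, Gzma at 1455 to 2096 CPM, and Ccl5, a chemokine at 2165 to 2491 CPM in the gated cells, at 505.3 to 578.0 CPM.

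**Figure D2:**
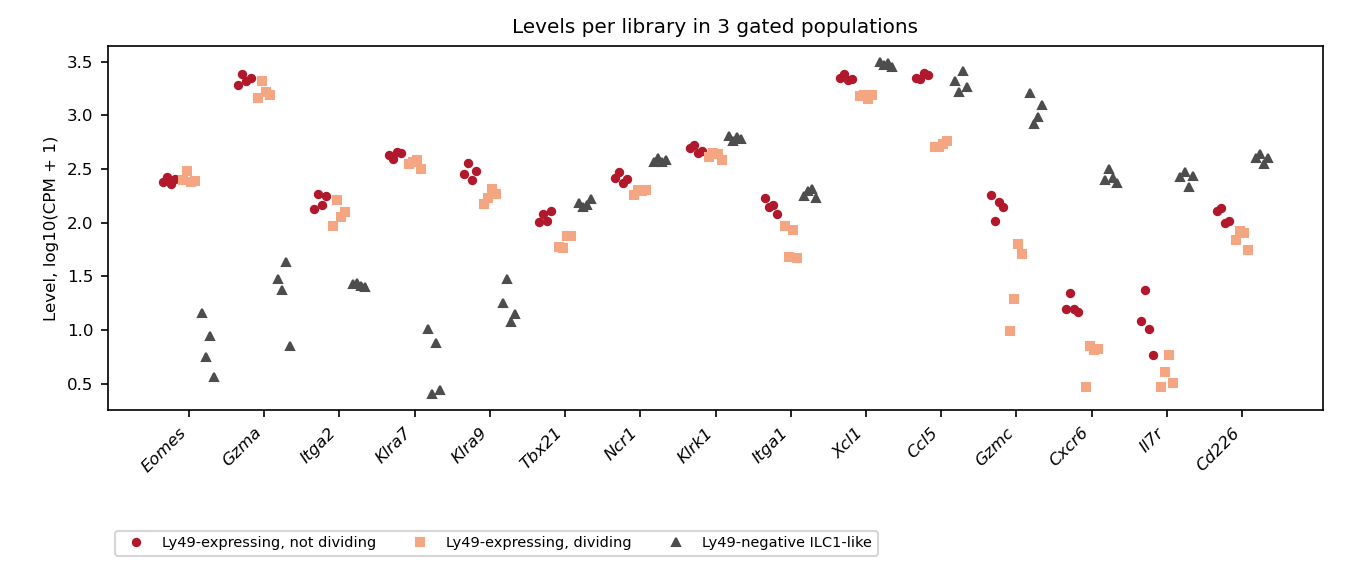
Level of 15 genes (x axis) as log10(CPM + 1) in Ly49-expressing cells that were not dividing, in dividing ones and in Ly49-negative ILC1-like cells, 1 point per library. Eomes, Gzma and Itga2 were higher in the gated than in the Ly49-negative cells of every library, and Gzmc, Cxcr6 and Il7r were lower.

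Among the Ly49 receptors that the rule did not use, 3 inhibitory ones led. UMIs here tag the 3′ end of a transcript, so levels were not divided by length. Klra7, which encodes Ly49G, had 430.3 and 390.7 CPM in Csf2-/- against 455.3 and 446.8 CPM in Csf2+/- cells. Klra9, which encodes Ly49I, had 282.1 and 360.0 CPM in Csf2-/- against 251.5 and 302.2 CPM in Csf2+/- cells. Klra3, which encodes Ly49C, had 273.0 and 251.2 CPM in Csf2-/- against 235.4 and 205.8 CPM in Csf2+/- cells. Klra7 stood above Klra9, and Klra9 above Klra3, in every library, although the ranges of Klra9 and Klra3 over the libraries overlapped. Klra1, which encodes Ly49A, followed at 57.4 and 83.4 CPM in Csf2-/- against 94.0 and 75.2 CPM in Csf2+/- cells. Klra5, Klra10 and Klra6 stood lower, at 13.2 to 22.8, 7.85 to 12.8 and 4.81 to 10.3 CPM. Among windows of 90 bases in the last 500 transcript bases of the reference annotation, 10.5% of those of Klra10, 8.52% of Klra3 and 1.95% of Klra9 were shared with another Ly49 gene, so reads of these genes are uncertain. None of the windows of Klra1, Klra4, Klra5, Klra6, Klra7, Klra8 or Klre1 was shared.

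Cells carried a few Ly49 genes each. After thinning to 3000 UMIs, the median cell had 1 of the 8 Ly49 genes that the rule did not use in each library, and the mean was 1.29 and 1.28 in Csf2-/- against 1.31 and 1.34 in Csf2+/- libraries. With Klra4 and Klra8, which chose the cells, the mean was 2.19 and 2.12 of 10 genes in Csf2-/- against 2.29 and 2.31 in Csf2+/- libraries. A gene with a single UMI left can be missed, so these are lower limits. Klra7 was found in 42.1% and 39.4% of thinned Csf2-/- cells and in 45.7% and 48.1% of thinned Csf2+/- cells.

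Csf2 transcripts were rare in these cells. There were 1 and 0 Csf2 UMIs in the Csf2-/- and 5 and 5 in the Csf2+/- gated cells, a ratio of 0.161 Csf2-/- over Csf2+/- with a 95% counting interval of 0.00371 to 1.13. The targeted gene was thus too rare in the gated cells to check the genotype labels there. In the rest of each library Csf2 stood at 0.989 and 1.147 CPM in Csf2-/- against 18.4 and 19.6 CPM in Csf2+/- cells. It was thus lower in both Csf2-/- libraries, the direction that the labels give. Of the GM-CSF receptor chains, Csf2ra had 11.97 and 12.6 CPM in Csf2-/- against 11.6 and 12.4 CPM in Csf2+/- cells. Csf2rb had 2.96 and 5.81 CPM in Csf2-/- against 8.87 and 3.88 CPM in Csf2+/- cells. Mixed-lineage cells held 20 of 23 and 25 of 29 Csf2rb UMIs in Csf2-/- against 92 of 102 and 28 of 35 in Csf2+/- libraries. They held 49 of 93 and 32 of 63 Csf2ra UMIs in Csf2-/- against 58 of 133 and 55 of 112 in Csf2+/- libraries.

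Between the genotypes, 3 of 11265 genes tested passed in the gated cells, which is 0.0266% (edgeR quasi-likelihood test on counts summed per library, Benjamini-Hochberg adjusted p under 0.05). One was higher in Csf2-/- cells (0.00888%) and the others were lower (0.0178%). At an unadjusted p under 0.05 there were 745 genes (6.61%), and the 2 Csf2-/- libraries did not overlap the 2 Csf2+/- libraries in 35.5% of genes. No gene of the NK gene lists was among the 3. P-values rest on the spread between these pools of 2 mice, a female and a male pool in each genotype. Sex was not a term in this test. The spread, and each SD over the 2 libraries of a genotype, thus includes any difference between the sexes. The count moved with the cells and libraries used: leaving out the Csf2-/- female library gave 51, the Csf2-/- male 53, the Csf2+/- female 150 and the Csf2+/- male 140, where the lone library of a genotype is assumed to vary like those of the other, and it was 0 with predicted doublets removed (685 genes at an unadjusted p under 0.05).

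Of the 3 genes, Homer1, which encodes a scaffold protein best known from synapses, was spread over many cells. It had 43.9 and 43.3 CPM in Csf2-/- against 69.3 and 71.9 CPM in Csf2+/- cells, and averaged 43.6 ± 0.429 CPM in Csf2-/- against 70.6 ± 1.85 CPM in Csf2+/- cells (SD, n = 2 each; log2 fold change -0.68, SE 0.11, edgeR adjusted p = 0.0427). The libraries of a genotype lay close together and the genotypes did not overlap. Homer1 UMIs were found in 209 of 763 and 130 of 532 Csf2-/- cells and in 338 of 997 and 297 of 821 Csf2+/- cells. With the mixed-lineage cells left out, the log2 fold change was -0.65 and the adjusted p 0.0763. In Ly49-negative cells its log2 fold change was -0.38 (SE 0.21, edgeR adjusted p = 0.875). In the rest of each library Homer1 was also lower in Csf2-/-, at 55.9 CPM in both libraries, against 74.0 and 69.5 CPM in Csf2+/-.

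The other called genes lay mostly in mixed-lineage cells. Ifitm2, an interferon-induced membrane protein gene, had 29.7 and 36.7 CPM in Csf2-/- against 17.6 and 16.2 CPM in Csf2+/- cells (log2 fold change 0.97, SE 0.14, edgeR adjusted p = 0.0164). Of its UMIs, 181 of 231 and 159 of 183 in Csf2-/- against 141 of 202 and 90 of 146 in Csf2+/- cells lay in mixed-lineage cells. Without those cells its level was 6.80 and 5.11 CPM in Csf2-/- against 5.64 and 6.53 CPM in Csf2+/- cells, so the genotypes overlapped, with a log2 fold change of 0.014. Il12b, which encodes a subunit shared by interleukins 12 and 23 and is made chiefly by myeloid cells, had 1 and 0 UMIs in Csf2-/- against 57 and 64 UMIs in Csf2+/- cells (edgeR adjusted p = 0.00147). The ratio was 0.0133 with a 95% counting interval of 0.000334 to 0.0755. This interval takes each UMI as independent and leaves out the spread between cells and libraries, so it is too narrow. A single cell held 31 of the 57 UMIs of the Csf2+/- female library and 59 of the 64 of the male. Il12b was named after its values were seen, since its mean was under 10 CPM.

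With the mixed-lineage cells left out, 1 gene passed, Retnla, a secreted protein gene of alternatively activated macrophages and dendritic cells, also named after its values were seen. There were 6 and 2 Retnla UMIs in 6 and 2 Csf2-/- cells, against 127 and 125 UMIs in 107 and 102 Csf2+/- cells (log2 fold change -4.26, SE 0.35, edgeR adjusted p = 6.61e-05). In the rest of each library Retnla stood at 94.5 and 72.5 CPM in Csf2-/- against 695.6 and 664.3 CPM in Csf2+/- cells. At full depth a Retnla UMI was in 1.18% and 0.376% of all gated Csf2-/- cells and 11.03% and 13.0% of Csf2+/- cells. In B cells it was in 1.17% and 0.935% of Csf2-/- and 11.7% and 8.33% of Csf2+/- cells. After thinning, the gated shares in Csf2+/- libraries, 4.44% and 5.29%, lay under those of B cells, 7.63% and 6.76%, with overlapping 95% intervals, so no share above that of B cells was detectable at equal depth. Over all gated cells, where 1 cell held 116 of the 124 Retnla UMIs of the Csf2-/- female library, the log2 fold change was -1.20 (edgeR adjusted p = 0.945).

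The receptors of NK cells were not called. In the list of Ly49 receptors, 0 of 9 genes tested passed and the median log2 fold change was 0.12, beside 0.0037 over all genes. With mixed-lineage cells left out, the median over the same 9 genes turned to -0.15, beside 0.0027 over all genes. Klra7 had a log2 fold change of -0.13 (SE 0.09), Klra9 of 0.22 (SE 0.11) and Klra3 of 0.26 (SE 0.10, edgeR adjusted p = 0.689). Klra1 and Klra5 had -0.28 and -0.34, which ran from -0.52 to -0.059 and from -0.82 to -0.031 over the alternative settings. Klra10 and Klra6 had 0.21 and -0.52, each of which turned sign when 1 library was left out. Of the other lectin-like receptors, 0 of 12 passed (median 0.12). Klrk1, which encodes the activating receptor NKG2D, had 502.0 and 529.8 CPM in Csf2-/- against 444.3 and 466.3 CPM in Csf2+/- cells (log2 0.19, SE 0.08). Klrb1c and Klrb1a had log2 fold changes of 0.23 and 0.30. The genotypes did not overlap in either, nor in 58.3% of this list and 35.5% of all genes tested.

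Among other NK receptors 0 of 18 passed, with 14 positive and 4 negative log2 fold changes and a median of 0.18. Over all genes tested, 5729 were positive and 5536 negative, and the genotypes did not overlap in 35.5%. Cd226, an activating receptor for nectin-family ligands, had 128.6 and 137.7 CPM in Csf2-/- against 99.6 and 101.9 CPM in Csf2+/- cells (log2 0.41, SE 0.08, edgeR adjusted p = 0.0636). Ncr1 had a log2 fold change of 0.19 (SE 0.09). Both Csf2-/- libraries were above both Csf2+/- libraries for Cd226, and its adjusted p stayed over 0.05 with the mixed-lineage cells left out, at 0.106.

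**Figure D3:**
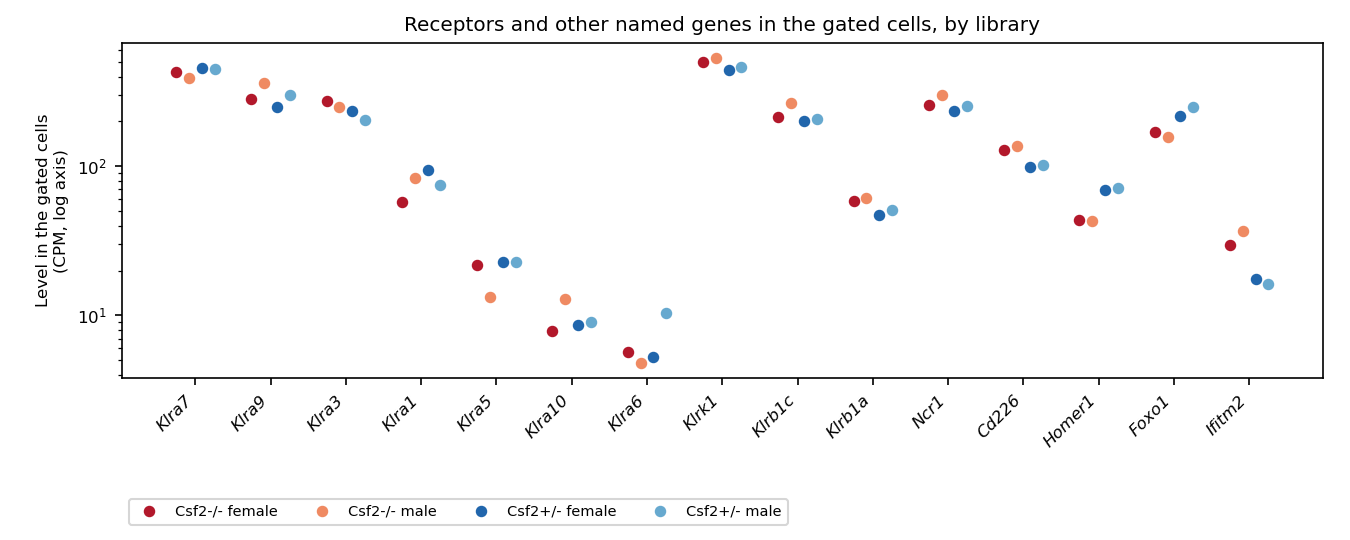
Level in CPM (log axis) of receptor genes and other named genes (x axis) in the gated cells, 1 point per library. Homer1 and Foxo1 lay lower and Cd226 and Ifitm2 higher in both Csf2-/- than in both Csf2+/- libraries, of which Homer1 and Ifitm2 passed the test.

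No gene of the killing machinery was called. Of 19 cytotoxic granule genes tested, 0 passed, with a median log2 fold change of 0.032. Gzma averaged 2175 ± 341.1 CPM in Csf2-/- against 2156 ± 109.0 CPM in Csf2+/- cells (SD, n = 2 each; log2 0.016, SE 0.09). Gzmb had 163.5 and 208.5 CPM in Csf2-/- against 160.7 and 211.8 CPM in Csf2+/- cells, and was the higher in the male library of each genotype. Prf1, which encodes perforin, had a log2 fold change of 0.085 (SE 0.12) and Gzmc one of -0.0067 (SE 0.42). Stx11, a syntaxin needed for granule release, had 35.3 and 37.5 CPM in Csf2-/- against 42.2 and 52.9 CPM in Csf2+/- cells (log2 -0.38, SE 0.13, edgeR adjusted p = 0.555).

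Of 30 transcription factors of NK cells and innate lymphoid cells, 0 passed, and the median was -0.017. Foxo1, a factor that restrains NK maturation, had 169.7 and 156.8 CPM in Csf2-/- against 216.5 and 249.7 CPM in Csf2+/- cells (log2 -0.50, SE 0.10, edgeR adjusted p = 0.0636). Zbtb16, which encodes the innate lymphoid factor PLZF, had a log2 fold change of -0.48 (SE 0.14) and Irf8 one of -0.27 (SE 0.09). Klf2 had 0.28 (SE 0.09). Eomes and Tbx21 had 0.057 (SE 0.09) and -0.055 (SE 0.10), and the genotypes overlapped in both.

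Among 21 genes of ILC1s and tissue residency 0 passed (median 0.10). Itga1 had 170.7 and 139.7 CPM in Csf2-/- against 144.0 and 118.6 CPM in Csf2+/- cells (log2 0.25, SE 0.16), and the female library was the higher in each genotype. Itga2 had -0.020 (SE 0.14), Cxcr6 0.31 (SE 0.18), Il7r 1.20 (SE 0.50) and Nr4a3, an activation-induced nuclear receptor, -0.32 (SE 0.10). TGF-β pathway genes gave 0 of 19 calls, with 4 positive and 15 negative log2 fold changes and a median of -0.17. The split over all genes tested was 5729 positive and 5536 negative. Ski, a repressor of SMAD signalling, had 139.8 and 124.9 CPM in Csf2-/- against 165.8 and 172.7 CPM in Csf2+/- cells (log2 -0.34, SE 0.09, edgeR adjusted p = 0.271). Pmepa1, a feedback inhibitor induced by TGF-β, had -0.26 (SE 0.09), Nt5e, which encodes the ecto-enzyme CD73, -0.36 (SE 0.13) and the ligand gene Tgfb1 -0.27 (SE 0.15). The genotypes did not overlap in these 4 genes, nor in 47.4% of the TGF-β pathway genes and 35.5% of all genes tested.

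Cytokine genes and the genes of their signalling also gave no call. Of 15 cytokine and chemokine genes 0 passed, and Ccl5, Xcl1 and Ifng had log2 fold changes of -0.14, 0.12 and 0.16. Csf1, a macrophage growth factor, had 0.644 and 0.802 CPM in Csf2-/- against 1.39 and 1.89 CPM in Csf2+/- cells, all low. Of 26 cytokine receptor genes 0 passed. Il12rb2, a chain of the interleukin-12 receptor, had a log2 fold change of -0.31 (SE 0.10) and Tnfrsf1b one of -0.30 (SE 0.09). Of 22 JAK-STAT genes 0 passed (median -0.07), with Stat3 at -0.31 (SE 0.09), the pro-apoptotic gene Bcl2l11 at -0.34 (SE 0.10) and Pim1, a STAT5 target, at -0.07 (SE 0.09). The integrin subunit gene Itgb7 had 106.9 and 117.7 CPM in Csf2-/- against 83.3 and 93.2 CPM in Csf2+/- cells (log2 0.35, SE 0.08, edgeR adjusted p = 0.171), among 26 chemokine receptor and integrin genes of which 0 passed. Kit, a growth factor receptor gene of immature cells, had 2.06 and 2.81 CPM in Csf2-/- against 5.22 and 7.10 CPM in Csf2+/- cells (log2 -1.35, SE 0.33, edgeR adjusted p = 0.181), and 0 of 14 genes of immature NK cells passed, nor did any of 13 genes of NK maturation or 19 of adaptors and signalling.

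Of 30 interferon response genes 0 passed, with 26 positive and 4 negative log2 fold changes and a median of 0.19. All genes tested had 5729 positive and 5536 negative ones. Ifi27l2a had 69.7 and 96.8 CPM in Csf2-/- against 58.9 and 60.8 CPM in Csf2+/- cells (log2 0.47, SE 0.12, edgeR adjusted p = 0.286). Its log2 fold change was 0.014 with no C1q UMI allowed and 0.61 with mixed-lineage cells left out (edgeR adjusted p = 0.999 and 0.720). Isg15 had a log2 fold change of 0.39 (SE 0.13). Of 13 genes of the mitochondrial genome 0 passed (median -0.14), with mt-Nd3 at 164.0 and 199.1 CPM in Csf2-/- against 250.3 and 300.2 CPM in Csf2+/- cells (log2 -0.60, SE 0.10, edgeR adjusted p = 0.0610) and mt-Co3 at -0.30 (SE 0.08). The median mitochondrial share per gated cell was 2.15% and 2.16% in Csf2-/- against 2.34% and 2.54% in Csf2+/- libraries. Of 15 glycolysis genes, 22 of S phase and mitosis, 22 of dissociation stress and 11 that lie near Csf2, 0 passed.

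**Figure D4:**
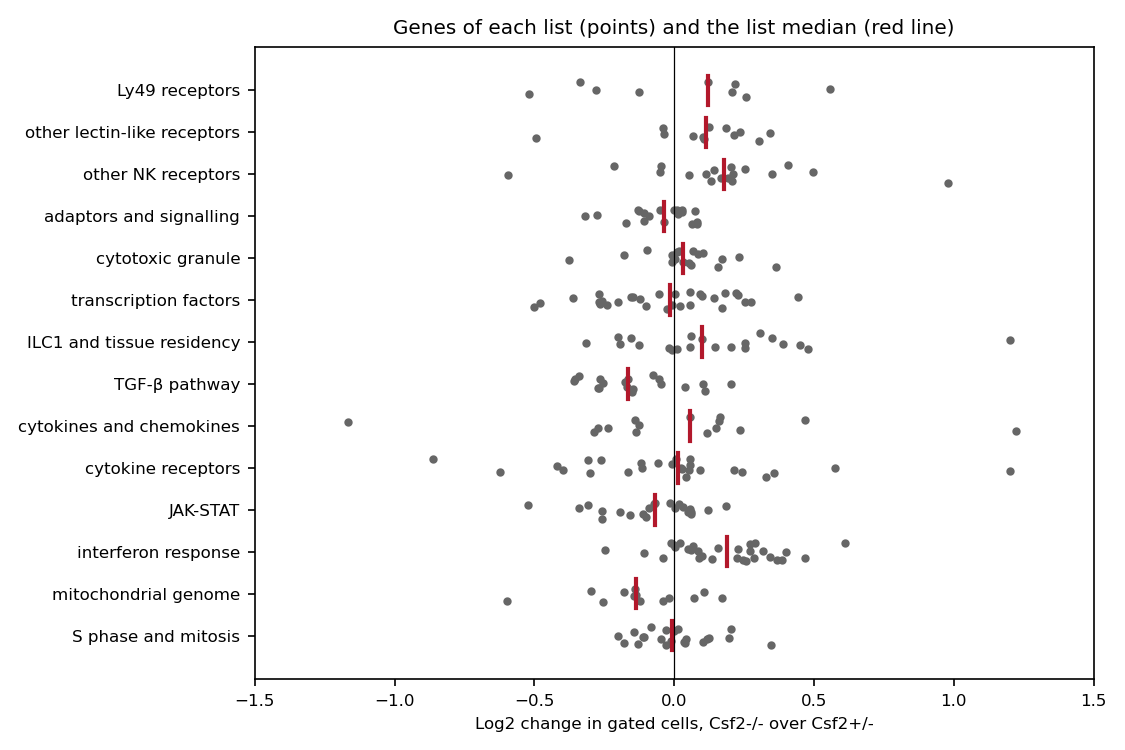
Log2 fold change, Csf2-/- over Csf2+/-, of each gene (points) of 14 lists (rows) in the gated cells, with the list median as a red line. The medians lay between -0.17 (TGF-β pathway) and 0.19 (interferon response), beside 0.0037 over all genes, and no gene of these lists passed the test.

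Transcripts of other cells also differed between the libraries. Macrophage genes other than those of the rule summed to 403.8 and 701.0 CPM in Csf2-/- against 342.1 and 355.9 CPM in Csf2+/- gated cells. Of 11 such genes 10 had positive log2 fold changes and 0 passed (median 0.53, but -0.0068 over the 10 still tested with mixed-lineage cells left out), with Apoe at 0.53 (SE 0.11) and Mrc1 at 0.88 (SE 0.29). Lyz2, Csf1r and Adgre1 of this list had also picked the cells left out, so the lower median was partly set by that choice. Dendritic genes summed to 882.0 and 735.1 CPM in Csf2-/- against 1086 and 668.6 CPM in Csf2+/- cells, and B cell genes to 170.3 and 151.5 CPM in Csf2-/- against 218.3 and 172.9 CPM in Csf2+/- cells. Granulocyte genes summed to 84.7 and 4.21 CPM in Csf2-/- against 44.0 and 7.43 CPM in Csf2+/- cells, higher in the females. Salivary epithelial genes summed to 5331 and 942.6 CPM in Csf2-/- against 1032 and 1635 CPM in Csf2+/- cells, highest in the Csf2-/- female library. Genes of ILC2s summed to 170.5 and 219.9 CPM in Csf2-/- against 226.5 and 233.4 CPM in Csf2+/- cells, T cell genes to 644.4 to 762.5 CPM, ILC3 genes to at most 12.2 CPM and red cell genes to at most 3.39 CPM. None of these lists had a called gene, and their part in the results was not tested.

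The genotype change of 4 of 10484 genes (0.0382%) differed between the gated and the Ly49-negative cells (edgeR, interaction of population with genotype, library as a block). The count was 0 with DESeq2 and 1 with predicted doublets removed. None of the NK lists' genes was called. Slc16a10, an aromatic amino acid transporter gene, came closest among genes with a lower change, at 286.1 and 300.3 CPM in Csf2-/- against 398.8 and 453.6 CPM in Csf2+/- gated cells, and 736.2 and 721.7 CPM in Csf2-/- against 757.5 and 792.7 CPM in Csf2+/- Ly49-negative cells (difference of log2 changes -0.43, SE 0.09, edgeR adjusted p = 0.0679).

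Between female and male cells, with genotype as a term, 17 of 11265 genes were called (0.151%), 11 higher in females (0.0976%) and 6 lower (0.0533%). Y-linked Ddx3y, Kdm5d and Uty were lower in females, with log2 differences, female minus male, of -8.44, -10.47 and -8.32, and X-linked Kdm6a was higher at 0.65 (SE 0.07, edgeR adjusted p = 0.00516). Gm26992, of which the files give no function, had 54.5 and 61.4 CPM in the Csf2-/- and Csf2+/- females and 2.00 and 2.44 CPM in the males (log2 4.73, SE 0.16, edgeR adjusted p = 3.46e-07). S100a9 and S100a8, genes of granulocytes, were higher in females by 6.55 and 5.14 on the log2 scale, and the B cell genes Ebf1 and Igkc by 2.71 and 2.21. With the mixed-lineage cells left out, 6 genes were called, and none was a granulocyte or B cell gene. S100a8, S100a9 and B cell genes had picked the cells left out, so this outcome was partly set by that choice and is no check.

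The gated cells fell into 11 clusters, numbered by size and described with no test, since the same cells formed them. Cluster 0 (748 cells) was led by Col3a1, Spsb1, Itga1, Cdh1 and Smyd3, and cluster 1 (731 cells) had Aff3, Plxnc1, Scml4 and Crim1 among its leading genes. Itga1 stood at 287.0 CPM in cluster 0 and 49.3 CPM in cluster 1, whereas Itga2 had 269.3 CPM in cluster 1 and 127.1 CPM in the other cells. Cluster 1 also had more Klra4, with 1215 CPM against 781.7 CPM in cluster 0. Eomes was present in both, at 240.4 CPM in cluster 0 and 312.8 CPM in cluster 1. Cluster 2 (573 cells) was led by Ccl1, Nrarp, Gzmc, Traf4 and Crtam, and had 3490 CPM of Xcl1. It held 23.1% of the Csf2-/- female, 14.7% of the Csf2-/- male, 21.6% of the Csf2+/- female and 12.7% of the Csf2+/- male cells, so it was larger in both female libraries.

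Cluster 4 (231 cells) went against the name of the whole. It was led by St6galnac3, Cxcr6, Camk4, Krt83 and Rora, with 44.5 CPM of Eomes, 455.2 CPM of Gzma and 120.9 CPM of Il7r, and 87.9% of its cells had a Klre1 UMI but none of Klra4 or Klra8. Its share was 7.60% and 9.77% in Csf2-/- against 6.72% and 6.58% in Csf2+/- libraries. Cluster 3 (325 cells) was led by Mup5, Scgb2b26, Car6, Scgb1b27 and Mucl2, secreted proteins of gland or liver epithelium, with a median of 7510 UMIs per cell and 4155 CPM of Gzma. Clusters 5 and 9 (219 and 53 cells) were led by Stmn1, Mcm3, Lig1, Mcm5 and Mcm7 and by Ccnb2, Birc5, Cenpa, Cenpf and Cenpe, genes of DNA replication and mitosis, so 8.74% of the gated cells grouped by cell cycle. Cluster 6 (87 cells) was led by the interferon-induced genes Cxcl10, Ifit3, Ifit1, Rsad2 and Isg15, at 3.01% and 2.82% of Csf2-/- and 2.71% and 2.68% of Csf2+/- cells. Cluster 8 (64 cells) was led by Tnfrsf13b, Tamalin, Spi1, Pik3r6 and Hdac9.

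Cluster 7 (74 cells) was led by Lyz2, H2-Ab1, Cd74, H2-Aa and H2-Eb1, myeloid genes, and cluster 10 (8 cells) by the B cell genes Ebf1, Ly6d, Cd79a, Bank1 and Cd79b. Of the 99 mixed-lineage cells, 81 lay in these clusters. The median depth was 19149 UMIs per cell in cluster 7 and 14293 in cluster 10, above the 7510 to 10713 of clusters 0 to 4. Doublet prediction marked 66 gated cells.

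**Figure D5:**
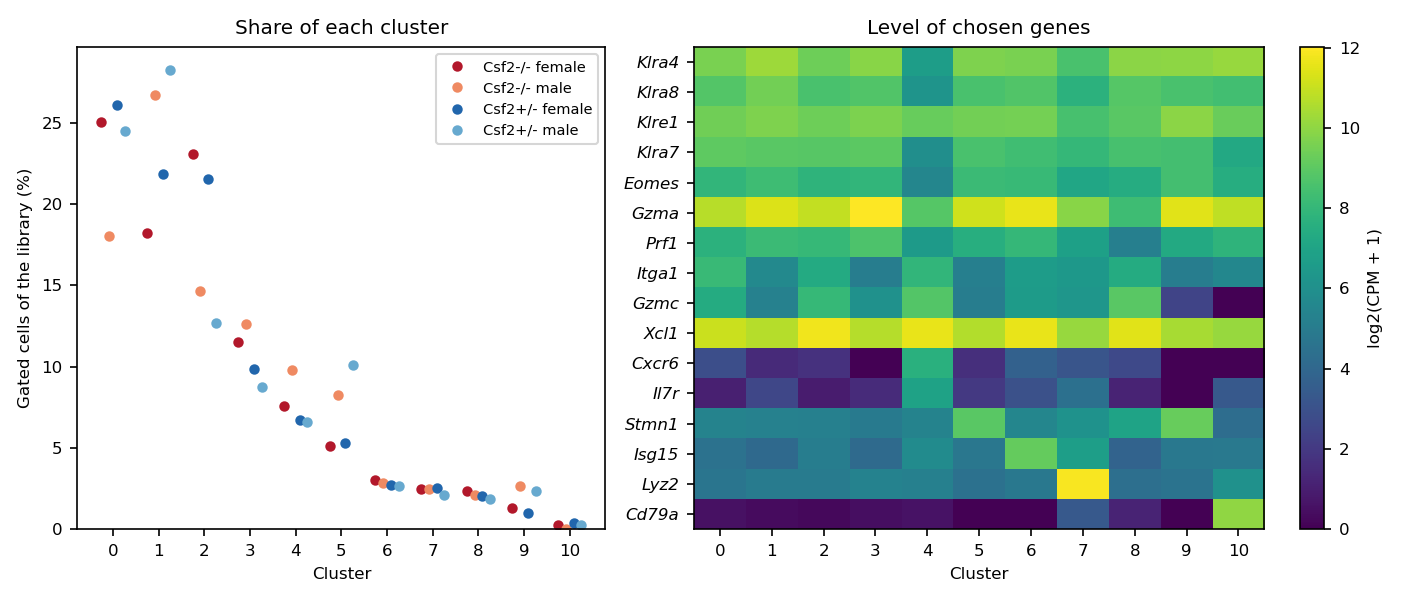
Left, share of each cluster (x axis) among the gated cells of a library in percent, 1 point per library. Right, log2(CPM + 1) of chosen genes (rows) by cluster (columns), in which cluster 4 stands apart by low Eomes (44.5 CPM) and high Cxcr6 and Il7r, and cluster 7 by Lyz2.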

How the data were processed

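Cells were sorted as CD45+ from salivary gland and profiled with the 10x Chromium single cell 3′ kit (v2), per the labels' protocols. The deposited files hold raw UMI counts of each gene per barcode. The submitters' processing notes name Cell Ranger 7.0.0 and the build GRCm39. The 4 libraries held 111981802 to 122366588 UMIs in 39395 barcodes. Barcodes under 500 UMIs, under 300 genes or above 10% mitochondrial UMIs were dropped before the rule for the cells was applied. Summed counts of the gated cells came to 4988567 to 11493127 UMIs per library.

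Counts summed per library were tested with edgeR 4.0.16 in R 4.3.3 (quasi-likelihood, robust, TMM, default low-count filter), with genotype as the only term and 2 residual degrees of freedom. The SE of a log2 fold change was obtained from its size and the F statistic. The interaction test took library as a block, and the sex test had genotype as a term and 1 residual degree of freedom. Benjamini-Hochberg adjustment ran over all genes tested. DESeq2 1.42.0 and limma 3.58.1 were alternatives, beside other normalization, filters, gates, depths and left-out libraries. Fits were checked on simulated counts. Doublets were predicted with Scrublet in scanpy 1.11.5 and kept in the main analysis. Its automatic threshold was used in both Csf2-/- libraries, but marked 0% and 0.0343% of Csf2+/- female and male barcodes, where the expected share was taken instead. Doublet removal was thus not alike in the genotypes, and took 9 and 13 gated Csf2-/- against 30 and 14 gated Csf2+/- cells. Clusters used leidenalg 0.10.2. Intervals of shares are exact binomial (scipy 1.17.1).

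The cells, gene lists and settings were chosen with earlier results of these data known. Genes are named by a rule: called genes that averaged 10 CPM or more with no overlap of the genotypes (up to 10 in each direction), up to 4 members of a list by p, a set of NK genes, the 5 lowest p per direction for the interaction and sex tests, and the 5 leading genes of a cluster. Csf2rb, Csf2ra, Tyrobp, Trbc1, Trac, Il12b, Retnla and some members of lists are named beside it, after their values were seen. Some genes that the rule named are not reported here.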

Additional observations from a re-analysis of the deposited data

Results flagged for a closer look

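In 4 genes the change between the genotypes differed between the Ly49-expressing and the Ly49-negative cells by an interaction test in edgeR. For Apoe, a macrophage gene, the log2 change Csf2-/- over Csf2+/- in gated cells minus that in Ly49-negative cells was 1.17 (SE 0.15, edgeR adjusted p = 9.30e-05). It had 89.1 and 120.5 CPM in Csf2-/- against 70.9 and 74.2 CPM in Csf2+/- gated cells, and 83.6 and 124.9 CPM in Csf2-/- against 145.8 and 174.1 CPM in Csf2+/- Ly49-negative cells. A single cell held 127 of the 199 Apoe UMIs of the Csf2+/- male Ly49-negative cells. The difference was 0.29 with predicted doublets removed, 0.31 with mixed-lineage cells left out and 0.24 with no C1q UMI allowed, and did not pass under these 3 settings or with DESeq2.

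For A630073D07Rik the difference was 2.59 (SE 0.33, edgeR adjusted p = 9.30e-05). It had 91.8 and 9.62 CPM in Csf2-/- against 12.4 and 7.99 CPM in Csf2+/- gated cells, and 1 cell held 511 of the 713 UMIs of the Csf2-/- female gated cells. The difference was 1.84 without the Csf2-/- female library, 1.30 with no C1q UMI allowed and 4.36 with a gate sum of at least 2, and did not pass under these 3 settings or with DESeq2. It was 2.43 with mixed-lineage cells left out (edgeR adjusted p = 1.12e-05). Of the 713 UMIs, 14 lay in mixed-lineage cells, so that setting kept the cell with 511. Ly49-negative cells had 29.0 and 5.43 CPM in Csf2-/- against 27.7 and 13.1 CPM in Csf2+/- libraries. A630073D07Rik was also among the leading genes of cluster 3, at 223 CPM against 11.7 CPM in the other gated cells. For Ccl7 the difference was 4.05 (SE 0.58, edgeR adjusted p = 0.000472), and 32 of the 36 Ccl7 UMIs of the Csf2+/- female Ly49-negative cells lay in 1 cell. The Ccl7 difference was 1.26 with predicted doublets removed, 1.49 with mixed-lineage cells left out and 1.24 with no C1q UMI allowed, and did not pass under these 3 settings or with DESeq2.

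For Cxcl9 the difference was 9.82 (SE 1.71, edgeR adjusted p = 0.0158), a value that depends on the handling of zeros. Ly49-negative cells held 0 and 0 Cxcl9 UMIs in Csf2-/- libraries, where 3 counts would be 1.74 and 2.33 CPM, and 184 and 84 in Csf2+/- libraries, of which 183 and 82 lay in 1 cell each. The gated cells held 6 and 2 Cxcl9 UMIs in Csf2-/- against 43 and 10 in Csf2+/- libraries. The Cxcl9 difference was 8.82 with predicted doublets removed and 9.19 without the Csf2-/- female library, neither of which passed, nor did it with DESeq2. Cxcl9 has no value with mixed-lineage cells left out, where 3 genes were called, of which A630073D07Rik was also called with all cells.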

How the results depend on the processing

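The count of genes called between Csf2-/- and Csf2+/- cells was 3, and 191 with no low-count filter, 21 with DESeq2, 1 with a gate sum of at least 2, 9 with one of at least 5, 0 with predicted doublets removed and 1 with mixed-lineage cells left out, a setting added after the data were seen. It ran from 51 to 150 with 1 library left out. In that reduced fit of mixed-lineage cells left out, DESeq2 called 16 genes and leaving out a library 7 to 47. The libraries share a replicate number only through sex. Over 7405 genes the female minus male deviations of the genotypes had a correlation of 0.12. With sex as a replicate block the count was 9. The genes with a different genotype change in Ly49-negative cells numbered 4, and 25 with no filter, 0 with DESeq2 (46 at an unadjusted p under 0.05), 1 with doublets removed, 1 with no C1q UMI allowed and 7 to 60 with 1 library left out. The genes called between female and male cells numbered 17, and 289 with no filter, 9 and 30 with gate sums of at least 2 and 5, 6 with doublets removed, 28 with no C1q UMI and 6 with mixed-lineage cells left out. Leaving out a library left that test no residual degrees of freedom. The causes were not tested.

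The difference in share was -3.21 points, and -5.93 among gated, dividing Ly49-expressing and Ly49-negative cells together. It was -7.33 with the Cd3 and later steps not applied, and negative in the other settings. Of the genes named, some near 0 turned sign. Gzma had -0.011 and Gzmc 0.16 with a gate sum of at least 2. Gzmb had -0.00037 with DESeq2-type size factors, -0.015 with no filter, -0.0039 with DESeq2, -0.024 with a gate sum of at least 5 and -0.0032 with doublets removed. With 1 library left out, the log2 fold change ran from -0.94 to 0.0077 for Klra6, -0.12 to 0.51 for Klra10, -0.11 to 0.13 for Gzma, -0.17 to 0.19 for Gzmb, -0.53 to 0.36 for Gzmc, -0.12 to 0.27 for Prf1, -0.19 to 0.089 for Tbx21 and -0.22 to 0.16 for Itga2. Of the 54 named genes followed between the genotypes, 8 turned sign and 27 of the other 46 moved by over 1.5 times in at least 1 setting, such as Itga1 (0.052 to 0.42), Cxcr6 (0.085 to 0.55) and Tgfb1 (-0.51 to -0.077). Retnla ran from -5.72 to -0.38. The median of the Ly49 list turned sign with mixed-lineage cells left out, as did those of NK maturation (-0.036 with all cells, 0.015 without), cytokine receptors (0.015 and -0.0017) and macrophage genes. Some of the macrophage genes had picked the cells left out. Precision is limited by 2 pools a genotype and by the shallower Csf2-/- cells.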
